A study of Homo sapiens with 4 samples.

Results

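The transcripts of QPRT and of the other enzymes that make, phosphorylate or divert the NAD pool were measured in SAS cells, an established line from a human tongue squamous cell carcinoma. The 10 genes were chosen by name (QPRT, KYNU, NAMPT, NAPRT, NMNAT1, NMNAT3, NADSYN1, NADK, NADK2 and NNMT) from a table of 35767 rows of RNA sequencing counts, and all 10 were found in it. They were picked with values of the comparison below known, so their levels and fold changes are given as a description. Where a call by the fit over all rows is named for a member, it is part of that description and supports nothing. Per the labels, 2 libraries come from cells given an siRNA against NAT10 (siNAT10, replicates 1 and 2) and 2 from cells given a control siRNA (siControl, replicates 1 and 2). The parent cells of both groups are labelled wild type, and no further agent is named. The labels call the replicates biological but name no separate cultures, so the spread behind each p-value may be technical. The genotype label of the second siNAT10 library names NAT11, an alias of NAA40, in place of NAT10.

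NAD carries electrons in energy metabolism and is also consumed as a substrate by sirtuins, PARP enzymes and NAD glycohydrolases. Cells build it from tryptophan through the kynurenine route, where KYNU cleaves hydroxykynurenine and QPRT turns quinolinate into nicotinic acid mononucleotide, or from nicotinic acid through NAPRT, from nicotinamide through NAMPT, and from nicotinamide riboside through the NMRK kinases. NMNAT enzymes then add the adenylyl group and NADSYN1 amidates the product of the acid routes. NADK in the cytosol and NADK2 in mitochondria phosphorylate NAD to NADP, while NNMT methylates nicotinamide and so takes it out of salvage. In many cancer lines salvage by NAMPT is the main supply.

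The libraries held between 30794757 and 36341785 counts. The mRNA of NAT10, the gene the siRNA names, was at 252 and 248 CPM (raw counts divided by the TMM-scaled library size, on the usual per-million scale) in the libraries labelled siNAT10, against 240.2 and 231 CPM in siControl. The difference on the log2 scale was 0.09 ± 0.06 (SE, 2 libraries in each group, edgeR adjusted p = 0.293), and -0.02 with library totals as the only scaling. NAA40 was at 18.6 and 18.2 CPM in the libraries labelled siNAT10, against 22.1 and 18.8 CPM in siControl (-0.15 ± 0.10, edgeR adjusted p = 0.255). A knockdown of NAT10 mRNA was therefore not seen, and every direction below is that of the libraries labelled siNAT10. Whether labels or columns were exchanged between the groups was not tested, and an exchange would turn every sign given. Of 8 squamous epithelial markers 7 were measured, and KRT17 made up most of their sum, which was 531 and 569 CPM in the libraries labelled siNAT10 and 875 and 906 CPM in siControl, while KRT5 and DSG3 did not exceed 0.195 and 0.165 CPM in any library. Summed markers ranged from 20.6 to 22 CPM in the libraries labelled siNAT10 against 29.3 to 31 CPM in siControl for fibroblasts, mostly from COL1A1, from 1.69 to 2.7 against 5.56 to 5.88 CPM for blood cells, and from 3.23 to 3.6 against 2.64 to 3.16 CPM for endothelium. The blood marker PTPRC and the fibroblast markers PDGFRA and LUM were at or near 0. Their part in the results was not tested.

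RefSeq promoter windows of 300 bases, from 250 bases before a transcript start to 50 after it (GRCh38.p14), were held for 8 of the 10 genes, with none for NNMT and NAPRT. They are shown for QPRT and KYNU, the 2 members with the lowest fold change, for NAMPT, which was slightly higher, and for NADSYN1, which was slightly lower, because their CpG content differs. Each is written 5′ to 3′ on the gene's own strand, with CpG dinucleotides in capitals.
QPRT, chr16:29678930-29679229, plus strand: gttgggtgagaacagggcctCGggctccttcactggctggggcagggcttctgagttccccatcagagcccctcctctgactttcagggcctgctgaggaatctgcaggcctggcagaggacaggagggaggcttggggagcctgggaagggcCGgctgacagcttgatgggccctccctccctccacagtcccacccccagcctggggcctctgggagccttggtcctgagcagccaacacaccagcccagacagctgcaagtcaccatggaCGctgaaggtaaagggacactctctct
KYNU, chr2:142877414-142877713, plus strand: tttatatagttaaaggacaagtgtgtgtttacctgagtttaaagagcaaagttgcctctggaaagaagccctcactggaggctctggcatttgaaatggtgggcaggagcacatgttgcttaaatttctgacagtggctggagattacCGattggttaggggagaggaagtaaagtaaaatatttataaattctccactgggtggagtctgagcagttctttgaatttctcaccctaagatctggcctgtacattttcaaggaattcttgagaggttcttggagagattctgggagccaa
NAMPT, chr7:106284934-106285233, minus strand: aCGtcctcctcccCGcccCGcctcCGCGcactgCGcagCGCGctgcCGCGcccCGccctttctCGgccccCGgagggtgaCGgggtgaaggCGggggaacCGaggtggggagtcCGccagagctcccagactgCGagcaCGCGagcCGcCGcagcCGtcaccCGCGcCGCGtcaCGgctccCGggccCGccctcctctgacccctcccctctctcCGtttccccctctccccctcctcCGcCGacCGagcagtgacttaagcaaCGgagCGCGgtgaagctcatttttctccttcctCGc
NADSYN1, chr11:71452953-71453252, plus strand: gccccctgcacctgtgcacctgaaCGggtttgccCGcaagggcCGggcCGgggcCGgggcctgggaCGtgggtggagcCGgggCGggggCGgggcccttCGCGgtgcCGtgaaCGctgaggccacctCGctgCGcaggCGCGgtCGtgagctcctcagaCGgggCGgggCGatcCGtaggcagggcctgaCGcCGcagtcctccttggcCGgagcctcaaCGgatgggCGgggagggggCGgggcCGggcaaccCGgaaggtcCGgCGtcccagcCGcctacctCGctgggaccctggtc
The QPRT window held 3 CpG dinucleotides and the KYNU window 1, against 38 in NAMPT and 34 in NADSYN1, and a median of 14 over all 35116 windows. A second QPRT window, from another start, held 1. QPRT was not poor in G and C (64.0%), whereas KYNU was (42.3%). The first listed windows of NMNAT1, NMNAT3, NADK and NADK2 held 27, 18, 6 and 23. Further windows held 12 in NMNAT3, 36 and 5 in NADK, and 33 and 32 in NADK2.

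Exact matches to 4 short motifs were searched on both strands of all 14 windows of these 8 genes. The composite element bound by ATF4 with C/EBP proteins (TGATGCAA) had no match, where 0.866% of all windows held one. Neither the cyclic AMP element (TGACGTCA, in 1.85% of all windows) nor the interferon response core (TTTCNNTTT, in 10.5%) had a match. The E-box CACGTG occurred once each in the second listed window of NADK and the first of NADK2, and in 7.26% of all windows. No match says only that these letters are not in these windows.

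By the edgeR fit over all 20098 rows with enough counts, 2 members were called higher (NAMPT and NADK) and 4 lower (QPRT, KYNU, NNMT and NADSYN1) in the libraries labelled siNAT10, 3 were not called, and NMNAT3 had too few counts to be tested. Over all tested rows 40.4% were called (47.1% of those that GENCODE names protein-coding), 19.7% higher and 20.7% lower, or 2689 higher and 5601 lower rows instead of 3951 and 4169 with libraries scaled by their totals alone, which moved the median row to -0.12 on the log2 scale. The groups did not overlap for 6 of the 9 tested members, against 69.5% of all tested rows. The values of these members were known when they were picked, so nothing is read from these counts. In bulk RNA, fewer cells of a kind and less RNA per cell cannot be told apart.

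**Figure D1:**
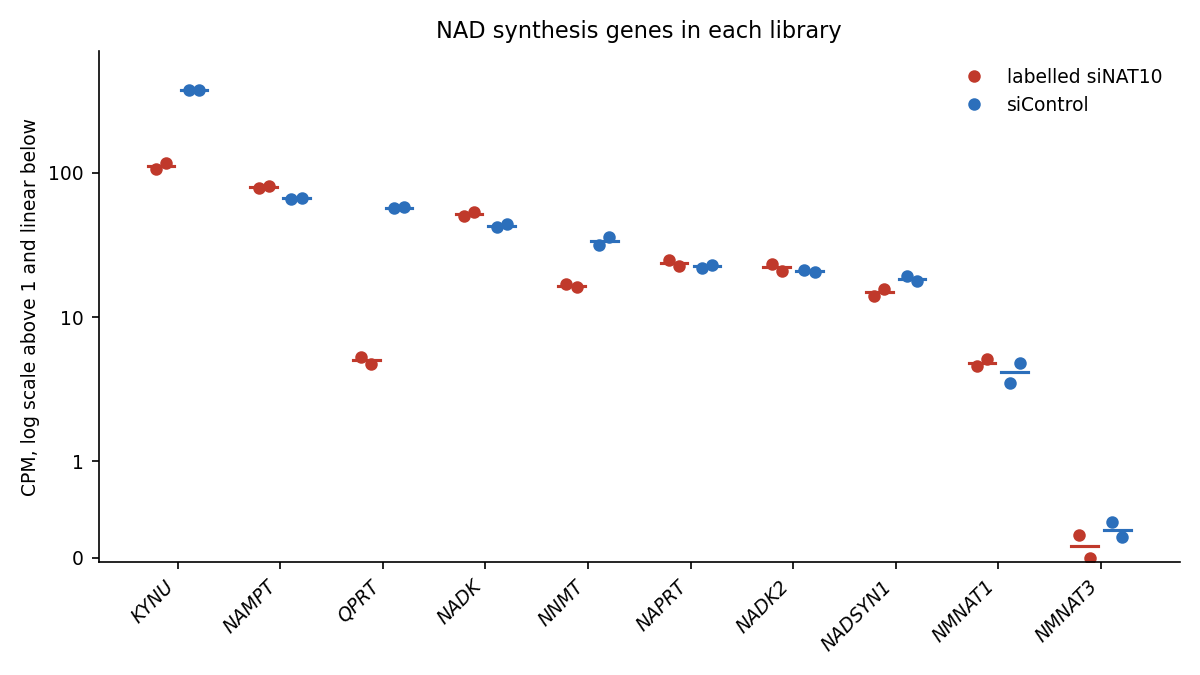
Level of each NAD synthesis gene in each library, in CPM on an axis that is logarithmic above 1 and linear below. Points are single libraries and short lines are group means, with libraries labelled siNAT10 in red and siControl in blue. The red points of QPRT lie at 5.31 and 4.74 CPM, far below its blue points at 56.6 and 57.6 CPM.

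On the route from tryptophan, both measured members were far lower in the libraries labelled siNAT10. QPRT (chromosome 16, 29679008 to 29698699, GRCh38, plus strand), the enzyme that consumes quinolinate, had 184 and 140 raw counts in the libraries labelled siNAT10 and 2157 and 2140 in siControl. That was 5.31 and 4.74 CPM in the libraries labelled siNAT10, against 56.6 and 57.6 CPM in siControl. Both siNAT10 libraries thus lay far below both siControl libraries, and replicates lay close together. The log2 fold change was -3.50 ± 0.10 (SE), with a 95% interval from -3.71 to -3.29, an 11.3-fold lower level, and ranked 38 from the lowest of the 20098 tested rows. It ranged from -3.61 to -3.42 over 11 alternative settings. The row AC009133.22 shares 572 exon bases with QPRT on the same strand, 15.7% of the QPRT exons and 93.8% of its own. It was at 0.289 and 0.0677 CPM in the libraries labelled siNAT10 against 2.99 and 3.53 CPM in siControl, and the origin of its reads is uncertain.

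KYNU (chromosome 2, 142877498 to 143055832, plus strand), kynureninase, acts before QPRT on this route. It was at 106 and 117 CPM in the libraries labelled siNAT10, against 376 and 374 CPM in siControl. The groups were well apart, and KYNU was the member with the most counts in all 4 libraries. The log2 fold change was -1.75 ± 0.07 (95% interval -1.89 to -1.61), a 3.36-fold lower level, from -1.86 to -1.67 over the alternatives. The overlapping antisense row RP11-470B22.1 and the pseudogenes KYNUP2 and KYNUP3 did not exceed 0.161 CPM in any library.

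The salvage enzymes differed little between the groups. NAMPT (chromosome 7, 106248285 to 106286326, minus strand), which makes nicotinamide mononucleotide from nicotinamide, was at 78.3 and 81.1 CPM in the libraries labelled siNAT10, against 66.0 and 67.3 CPM in siControl. Both siNAT10 libraries were above both siControl libraries, by 1.20-fold (log2 fold change 0.26 ± 0.07, 95% interval 0.11 to 0.40). It was not called without siNAT10 replicate 2 (0.24) or with libraries scaled by their totals alone (0.15). NAMPT has a pseudogene row, NAMPTP1, with 2.08 and 2.10 CPM in the libraries labelled siNAT10 and 1.92 and 1.86 CPM in siControl, with which it may share reads, and the antisense row RP11-22N19.2 did not exceed 0.231 CPM.

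NAPRT (chromosome 8, 143574785 to 143578649, minus strand), the enzyme that takes up nicotinic acid into the pathway, was at 24.9 and 22.7 CPM in the libraries labelled siNAT10, against 21.8 and 23.0 CPM in siControl. The groups overlapped, with a log2 fold change of 0.09 ± 0.09 (95% interval -0.11 to 0.28), and -0.02 with libraries scaled by their totals alone. Its exons overlap 2 antisense rows. RP11-661A12.9, which shares 855 bases or 27.8% of the NAPRT exons, was at 5.98 and 6.16 CPM in the libraries labelled siNAT10, against 5.90 and 5.57 CPM in siControl. RP11-661A12.8, which shares 292 bases, was at 330 and 322 CPM in the libraries labelled siNAT10, against 288 and 322 CPM in siControl. The strand setting of the counting is not given in the sources used here, so reads in the shared bases cannot be told apart.

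Of the 3 members of the final steps, NADSYN1 had groups that did not overlap, and NMNAT1 and NMNAT3 had groups that did. NADSYN1 (chromosome 11, 71453109 to 71524107, plus strand), the glutamine-dependent NAD synthetase, was at 14.0 and 15.6 CPM in the libraries labelled siNAT10, against 19.2 and 17.8 CPM in siControl. The log2 fold change was -0.32 ± 0.10 (95% interval -0.54 to -0.10), a 1.25-fold lower level. It was not called without siNAT10 replicate 1 (-0.24), without siControl replicate 1 (-0.27) or with DESeq2 (-0.31). The nuclear adenylyltransferase gene NMNAT1 (chromosome 1, 9943428 to 9985501, plus strand) was at 4.56 and 5.08 CPM in the libraries labelled siNAT10, against 3.46 and 4.79 CPM in siControl, so that the groups overlapped (0.22 ± 0.19, 95% interval -0.16 to 0.61).

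NMNAT3 (chromosome 3, 139560180 to 139678017, minus strand), the adenylyltransferase assigned to mitochondria, was barely detected. It had 8 and 0 counts in the libraries labelled siNAT10 and 14 and 8 in siControl. The sums were 8 counts in the libraries labelled siNAT10 and 22 in siControl, and NMNAT3 did not pass the filter on low counts.

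The kinases that convert NAD to NADP were near level. NADK (chromosome 1, 1751232 to 1780457, minus strand), the cytosolic kinase, was at 50.3 and 53.1 CPM in the libraries labelled siNAT10, against 42.1 and 44.0 CPM in siControl. The groups did not overlap, with a 1.20-fold higher level (0.26 ± 0.08, 95% interval 0.11 to 0.42), and the call was lost without siNAT10 replicate 2 (0.23) and with libraries scaled by their totals alone (0.15). NADK2 (chromosome 5, 36192592 to 36242279, minus strand), the mitochondrial kinase, was at 23.2 and 20.9 CPM in the libraries labelled siNAT10, against 21.2 and 20.5 CPM in siControl. Its groups overlapped (0.08 ± 0.10, 95% interval -0.12 to 0.28), and its fold change was -0.03 with libraries scaled by their totals alone.

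NNMT (chromosome 11, 114257787 to 114313285, plus strand), the nicotinamide methyltransferase, was at 16.8 and 16.1 CPM in the libraries labelled siNAT10, against 31.4 and 35.6 CPM in siControl. Both siNAT10 libraries lay at about the same level and well below both siControl libraries. The log2 fold change was -1.02 ± 0.10 (95% interval -1.22 to -0.83), a 2.03-fold lower level, from -1.14 to -0.93 over the alternatives. No row overlaps its exons.

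**Figure D2:**
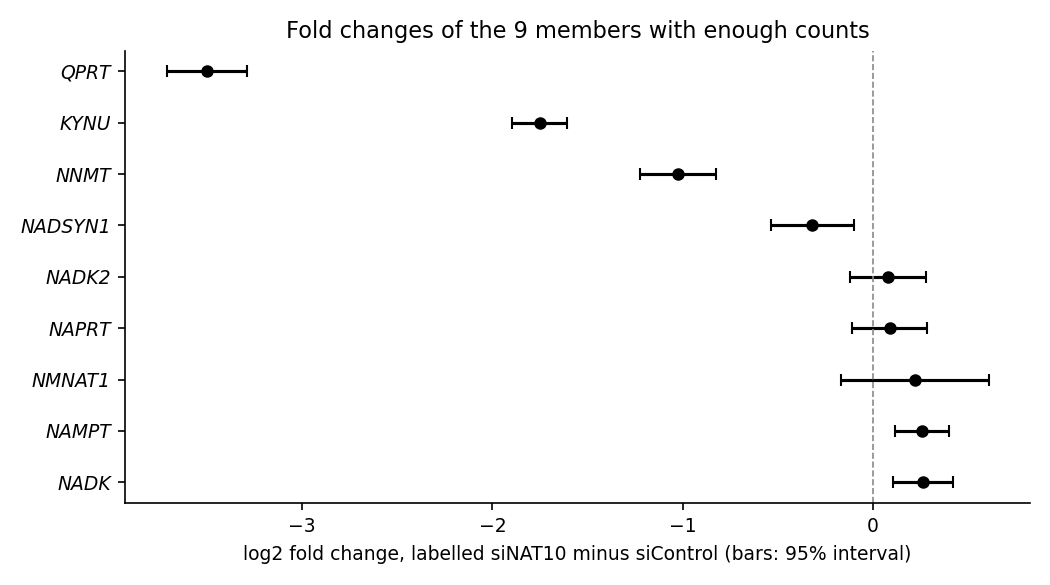
Log2 fold change, labelled siNAT10 minus siControl, of the 9 members with enough counts for the fit, with the 95% interval as bars. QPRT lies at -3.50, KYNU at -1.75 and NNMT at -1.02, and the other 6 lie between -0.32 and 0.26.

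Per kilobase of the deposited exon length, the order of the members differed between the groups. In the libraries labelled siNAT10 it ran from NADK (9.03 and 9.53 CPM per kb) over NAMPT (8.66 and 8.96), NAPRT (8.07 and 7.38), KYNU (6.02 and 6.66), NNMT (5.76 and 5.52) and NADK2 (4.75 and 4.28) to QPRT (1.46 and 1.30), NMNAT1 (0.99 and 1.10), NADSYN1 (0.863 and 0.962) and NMNAT3. In siControl KYNU (21.4 and 21.3 CPM per kb), QPRT (15.5 and 15.8) and NNMT (10.8 and 12.2) came first, ahead of NADK (7.56 and 7.90). There NAMPT (7.29 and 7.43) and NAPRT (7.07 and 7.47) overlapped in level and did not differ beyond their spread. NADK2 (4.35 and 4.20), NADSYN1 (1.18 and 1.09), NMNAT1 (0.751 and 1.04) and NMNAT3 followed. The rows of KYNU and NADSYN1 hold 17600 and 16263 exon bases, more than those of the other members, which lowers their values on this scale if most reads come from a shorter transcript.

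QPRT, NAMPT, NAPRT and NMRK1 each catalyse the entry of a different precursor, and were set against each other per kilobase. QPRT made up 7.55% and 7.05% of their summed level in the libraries labelled siNAT10, against 49.5% and 48.7% in siControl. NAMPT made up 44.8% and 48.6% in the libraries labelled siNAT10, against 23.2% and 22.9% in siControl, and NAPRT 41.8% and 40.0% against 22.5% and 23.0%. The share of NMRK1 overlapped, at 5.88% and 4.41% in the libraries labelled siNAT10 and 4.78% and 5.30% in siControl. The summed level itself was 19.3 and 18.5 CPM per kb in the libraries labelled siNAT10, against 31.4 and 32.4 CPM per kb in siControl. The shares depend on each other, so a smaller share of QPRT enlarges the others. In their own levels, NAPRT overlapped between the groups, NAMPT was 1.20-fold higher and NMRK1 was lower (-0.71) in the libraries labelled siNAT10. These are shares of mRNA, and say nothing of how much NAD each route makes.

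**Figure D3:**
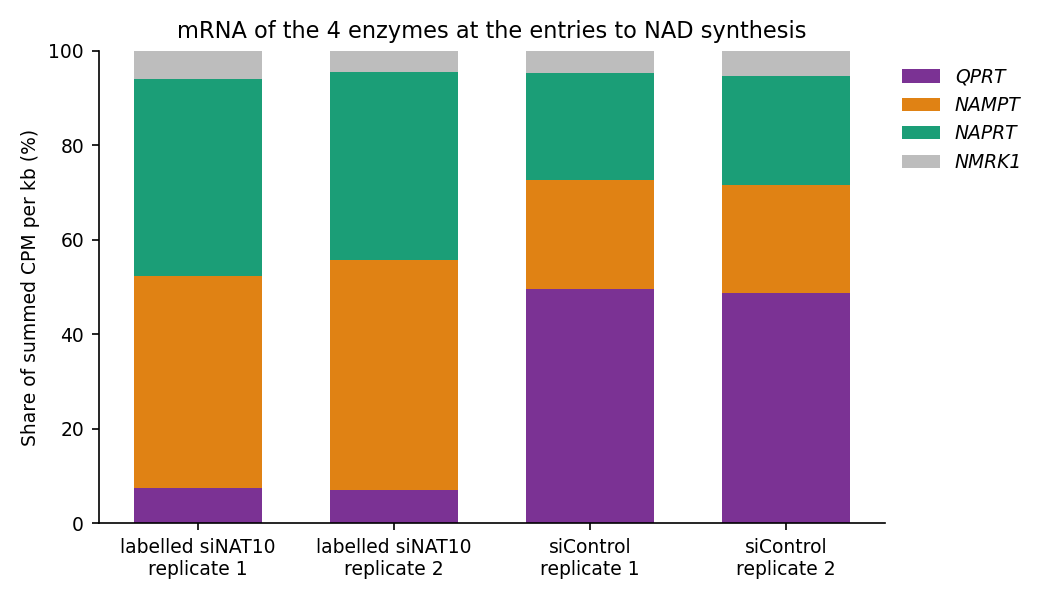
Share of QPRT, NAMPT, NAPRT and NMRK1 in their summed CPM per kb, in percent, with 1 bar for each library. QPRT takes 7.55% and 7.05% in the libraries labelled siNAT10 and 49.5% and 48.7% in siControl.

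Beyond the members, 59 other genes of NAD metabolism were listed by function, of which 55 were found and 48 had enough counts to be tested. The lists were drawn up with earlier results of these data known. Their calls and adjusted p-values are therefore a description and not a fresh test. Of the 48 tested, 11 rose and 16 fell in the libraries labelled siNAT10 (edgeR adjusted p under 0.05), or 56.2%. Over all tested rows 40.4% were called, and 47.1% of those that GENCODE names protein-coding. Among tested rows with a mean of at least 5 CPM, 27.6% rose and 25% fell. The share called is therefore not read as particular to these genes. Their median log2 fold change was -0.10, against -0.01 over all rows. Without siNAT10 replicate 2, 8 rose and 10 fell. With libraries scaled by their totals alone 7 rose and 19 fell, and with DESeq2 7 rose and 12 fell.

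On the route from tryptophan to quinolinate, 3 of 7 tested genes rose and 1 fell. The one that fell was IDO1, which opens the route and is induced by interferon, with 18 and 41 counts in the libraries labelled siNAT10 against 176 and 116 in siControl (log2 fold change -2.05, edgeR adjusted p = 8.28e-05). It lies below the level set for naming and was chosen after its values were seen, and its fold change ranged from -2.89 without siNAT10 replicate 2 to -1.47 without siNAT10 replicate 1. KMO and AFMID, which act between IDO1 and KYNU, were called higher. KMO, which hydroxylates kynurenine, was at 5.25 and 5.86 CPM in the libraries labelled siNAT10 against 3.80 and 4.04 CPM in siControl (0.50 ± 0.17, edgeR adjusted p = 0.0213).

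AFMID, which releases kynurenine from its formyl form, rose too (0.43 ± 0.14, edgeR adjusted p = 0.0215), and so did KYAT3, an aminotransferase that diverts kynurenine to kynurenic acid (0.44 ± 0.12, edgeR adjusted p = 5.04e-03). The calls of KMO and AFMID were lost without siNAT10 replicate 2 (0.42 and 0.44), without siControl replicate 1 (0.46 and 0.24) and, for AFMID, without siNAT10 replicate 1 (0.43). Both calls were also lost with DESeq2 (0.50 and 0.43) and with libraries scaled by their totals alone (0.39 and 0.32). KMO shares 28.4% of its exons with the antisense gene OPN3, and KYAT3 20.3% with RBMXL1, neither of which was called. HAAO, the enzyme that makes the precursor of quinolinate, had 0 and 0 counts in the libraries labelled siNAT10 and 1 and 0 in siControl, where a count of 0 allows up to 3 counts in a library. IDO2, which also acts at the opening step, had 2 and 5 counts in the libraries labelled siNAT10 and 10 and 23 in siControl, too few to be tested. TDO2 was listed, but no row of that name was found, so it was not analysed here.

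Of the genes around nicotinamide riboside, 1 of 3 rose and 1 fell. The riboside kinase gene NMRK1 was at 4.39 and 3.15 CPM in the libraries labelled siNAT10, against 5.80 and 6.65 CPM in siControl (-0.71 ± 0.18, edgeR adjusted p = 3.42e-03), a call lost without siNAT10 replicate 2 (-0.50, adjusted p = 0.0562, range over 11 alternatives 1.62e-04 to 0.0562). NMNAT2, the adenylyltransferase best known from neurons, rose at a very low level, with 32 and 44 counts in the libraries labelled siNAT10 against 22 and 4 in siControl (1.79, edgeR adjusted p = 9.8e-03). It was named after its values were seen, and its fold change was 1.05 without siControl replicate 2, 3.43 without siControl replicate 1 and 1.42 without siNAT10 replicate 2, of which the first and the last were not called. DESeq2 did not call it either (1.82, adjusted p = 0.0579), and it did not pass a filter of 50 or more counts in at least 2 libraries.

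Of 9 tested transporters of precursors or NAD, 5 fell and 4 were not called. SLC12A8, reported as a carrier of nicotinamide mononucleotide, was at 4.19 and 4.40 CPM in the libraries labelled siNAT10, against 8.95 and 8.29 CPM in siControl (-1.01 ± 0.15, edgeR adjusted p = 1.87e-05). The nucleoside transporter genes SLC29A1 (-0.57 ± 0.10) and SLC29A2 (-0.32 ± 0.11) and SLC36A4, a carrier of tryptophan and proline (-0.38 ± 0.10), fell by less, with edgeR adjusted p of 1.08e-04, 0.0295 and 4.33e-03. The calls of SLC29A2 and SLC36A4 were lost without siNAT10 replicate 2 (-0.27 and -0.30), and that of SLC29A2 also without siControl replicate 2 (-0.23) and with DESeq2 (-0.32). SLC7A5, the large neutral amino acid transporter that brings in tryptophan, stood at 204 and 341 CPM in the libraries labelled siNAT10, against 160 and 151 CPM in siControl. Both siNAT10 libraries were above both siControl libraries but far from each other (0.81 ± 0.35, edgeR adjusted p = 0.218). SLC3A2, also on this list, was called lower (-0.16 ± 0.06, edgeR adjusted p = 0.0492). Its levels were 309 and 304 CPM in the libraries labelled siNAT10, against 340 and 344 CPM in siControl. The SLC3A2 call lay close to the threshold and was lost under several alternatives. Among these were DESeq2 size factors in edgeR, no filter on low counts and the replicate block. Like SLC3A2, SLC7A5 was named after its values were seen. It passed the threshold without siNAT10 replicate 1 or 2 (1.14 and 0.39), where the siControl libraries alone give the spread, so nothing is read from those fits.

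The NAD consumers moved in both directions. Of 7 sirtuins, 1 rose and 2 fell. SIRT1, the nuclear deacetylase, was at 49.5 and 46.2 CPM in the libraries labelled siNAT10, against 57.8 and 61.7 CPM in siControl (-0.32 ± 0.08, edgeR adjusted p = 2.06e-03), and the nucleolar SIRT7 was at 29.7 and 28.9 CPM in the libraries labelled siNAT10, against 23.1 and 24.2 CPM in siControl (0.31 ± 0.09, edgeR adjusted p = 7.96e-03). The SIRT7 call was lost without siNAT10 replicate 1 (0.29, adjusted p = 0.0511, range over 11 alternatives 5.53e-03 to 0.0745), and with libraries scaled by their totals alone (0.20). SIRT7 shares 105 exon bases with MAFG, which fell.

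Among the PARP enzymes, 3 of 13 tested genes rose and 5 fell. PARP1, the main responder to DNA breaks, was at 819 and 848 CPM in the libraries labelled siNAT10, against 519 and 516 CPM in siControl (0.69 ± 0.06, edgeR adjusted p = 4.42e-08). It had the highest mean CPM in both groups among the listed sirtuins, PARP enzymes and glycohydrolases. PARP14, PARP10 and PARP9, which are induced by interferon, were lower. PARP14 was at 43.5 and 41.3 CPM in the libraries labelled siNAT10, against 103 and 95.6 CPM in siControl (-1.22 ± 0.07, edgeR adjusted p = 1.69e-10). The exons of PARP10 overlap GRINA and SPATC1. PARP10 (-1.07 ± 0.15) and PARP9 (-0.87 ± 0.09) had edgeR adjusted p of 1.47e-05 and 1.9e-07, and the antisense neighbour DTX3L, which shares 2.43% of the PARP9 exons, fell with it (-1.23).

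Of the NAD glycohydrolases, SARM1 alone had enough counts. It was at 24.6 and 23.4 CPM in the libraries labelled siNAT10, against 33.2 and 34.5 CPM in siControl (-0.49 ± 0.09, edgeR adjusted p = 1.28e-04). However, 39.7% of its exon bases are shared with the antisense gene SLC46A1, which also fell (-0.42), so the origin of these reads is uncertain. CD38 had 2 and 4 counts in the libraries labelled siNAT10 and 8 and 4 in siControl, and BST1 had 4 and 1 against 0 and 2.

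Among 8 genes of nucleotide breakdown, repair and transhydrogenation, 3 rose and 1 fell. AOX1, the aldehyde oxidase that oxidises methylnicotinamide, the product of NNMT, was at 4.82 and 5.59 CPM in the libraries labelled siNAT10, against 1.36 and 2.10 CPM in siControl (1.58 ± 0.22, edgeR adjusted p = 9.87e-06). NUDT12, a hydrolase of NADH, rose (0.55 ± 0.13, edgeR adjusted p = 1.61e-03). NT5E, the ectonucleotidase CD73, fell to 33.5 and 30.2 CPM in the libraries labelled siNAT10, against 41.8 and 44.5 CPM in siControl (-0.44 ± 0.08, edgeR adjusted p = 3.27e-04). ENPP1, an ectoenzyme that splits nucleotides, was called higher (0.30 ± 0.11, edgeR adjusted p = 0.0303), but not without siNAT10 replicate 2 (0.26) or without siControl replicate 1 (0.26), nor with DESeq2 (0.30) or totals alone (0.19).

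**Figure D4:**
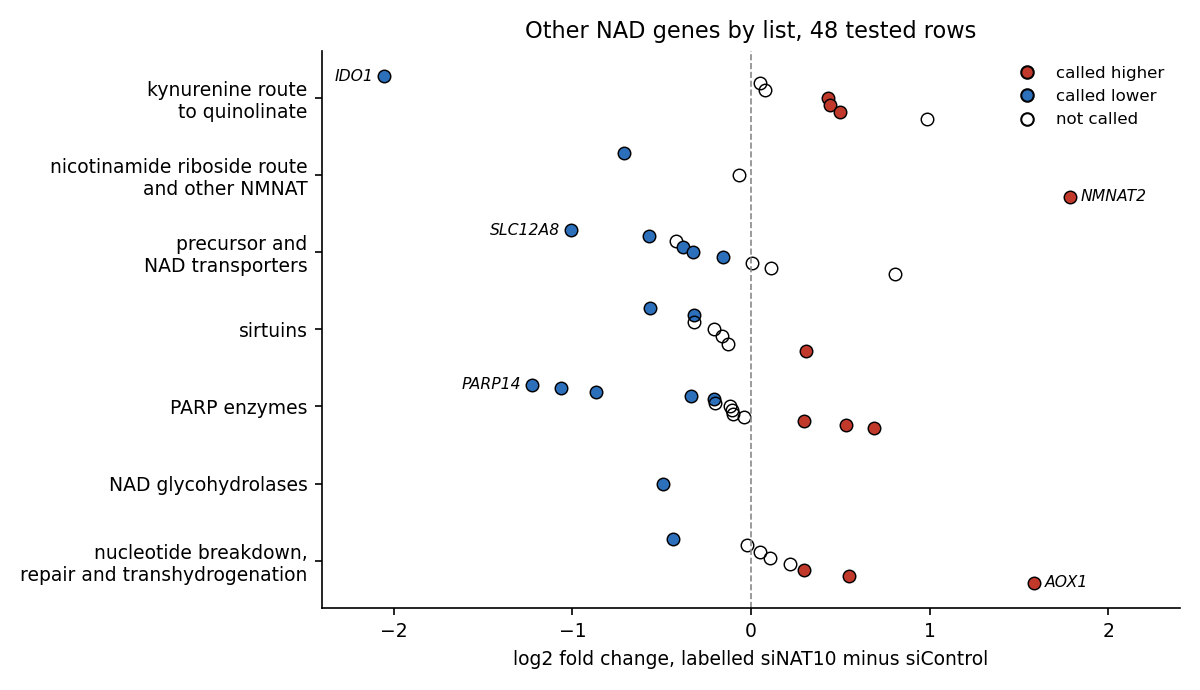
Log2 fold change, labelled siNAT10 minus siControl, of the 48 tested other NAD genes, grouped by list down the page. Filled points were called higher (red) or lower (blue) at an edgeR adjusted p under 0.05, and open points were not. IDO1 lies at -2.05, SLC12A8 at -1.01 and PARP14 at -1.22, while NMNAT2 at 1.79 and AOX1 at 1.58 lie farthest to the right.

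The rows whose profile over the 4 libraries was most like that of QPRT were sought among 11571 other rows with a mean of at least 5 CPM, by the Euclidean distance between log2 CPM centred on each row's own mean. The nearest was KRT16P6, a keratin pseudogene with near-identical copies (distance 0.259), followed by INHBE, an activin subunit gene (0.355), then XXbac-BPG116M5.17 (0.505) and CFB, the complement factor B gene (0.507), which share exons and are 1 signal, and the chemokine gene CCL5 (0.511). CCL5 was at 0.924 and 1.35 CPM in the libraries labelled siNAT10, against 12.6 and 12.1 CPM in siControl. INHBE was at 3.72 and 2.88 CPM in the libraries labelled siNAT10, against 30.3 and 29.4 CPM in siControl. KYNU ranked 69 by this distance and NNMT ranked 292. The measure rests on 4 libraries in 2 groups, so a row close to QPRT has a fold change like that of QPRT. That all 5 nearest rows were lower in the libraries labelled siNAT10 was thus fixed by the measure. The ranks of KYNU and NNMT mostly restate their fold changes, and nothing further is read from them.

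The row that overlaps QPRT on chromosome 16, AC009133.22, was lower with it (-4.10, edgeR adjusted p = 1.02e-07), and is not among the rows that follow: it is no neighbour outside the gene, and its mean is under 5 CPM. Because 93.8% of its exon bases are shared with QPRT, its lower level is not read as separate from that of QPRT. The 3 nearest tested rows before QPRT were the pseudogenes SLC7A5P1 (-0.04) and SMG1P2 (-0.52), neither called, and RP11-231C14.4 (-0.62, edgeR adjusted p = 2.50e-05), and the 3 after it were the kinesin gene KIF22 (0.18, edgeR adjusted p = 0.0483), AC009133.21 (0.40, edgeR adjusted p = 0.0267) and the zinc finger gene MAZ (-0.14, not called). KIF22, the nearest of these 6 rows that GENCODE names protein-coding, 92020 bases away, was at 87.0 and 88.1 CPM in the libraries labelled siNAT10, against 75.2 and 79.8 CPM in siControl. In a window of 1 Mb to each side, chosen after the values were seen, 30 of 43 other rows with a mean of at least 5 CPM fell and 4 rose, with a median log2 fold change of -0.38 and a range from -1.51 to 0.40. Over all tested rows at that level, 25% fell and 27.6% rose. Some of these rows overlap each other.

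**Figure D5:**
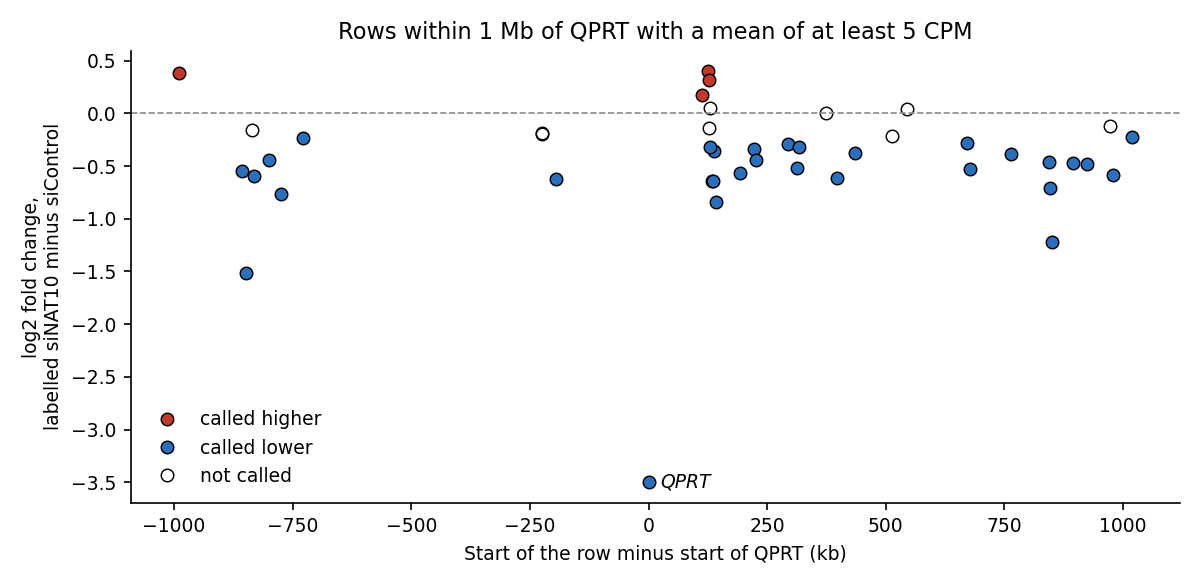
Log2 fold change, labelled siNAT10 minus siControl, of tested rows with a mean of at least 5 CPM against the distance of their start from the start of QPRT in kb. Red and blue points were called higher and lower, and open points were not called. QPRT lies at -3.50, and the 43 other rows between -1.51 and 0.40.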

How the data were processed

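Counts per gene of 4 RNA sequencing libraries of SAS cells were analysed. TRIzol extraction and the KC Digital mRNA kit are named in the labels' protocols. Per the submitters' processing notes, fastp 0.23.4, STAR 2.5.3a, featureCounts and GRCh38 were used. Their roles, the annotation release, the strand setting and any use of molecular identifiers: not given in the sources used here. Each deposited value is a raw count for 1 row of the table, which also holds an exon length per row. Between 72.0% and 73.5% of counts from 1 to 50 were even numbers, as counting both mates would give, so halved counts were an alternative.

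Rows passing filterByExpr were tested with edgeR 4.0.16 in R 4.3.3 (quasi-likelihood, TMM scaling, group only, 2 residual degrees of freedom, two-sided, Benjamini-Hochberg adjustment over 20098 rows, threshold 0.05). CPM are on TMM-scaled library sizes, except the cell type markers, which are on library totals. SE and 95% intervals come from the same fit. Its intervals also use degrees of freedom borrowed from the other rows, so they do not measure the spread of 2 libraries in each group alone. The fit was also run on simulated counts in which few rows differed, unlike these data, so that run does not vouch for the calls here. Its recovery limit was narrowed to rows with a mean of at least 5 CPM after it failed over all rows. The 11 alternatives were other scalings, filters, DESeq2 1.42.0, halved counts, a replicate block and each library left out. Chi-square per degree of freedom between replicates was 5.14 in the libraries labelled siNAT10 and 8.68 in siControl, where sampling noise alone gives about 1, or 2 if both mates of each fragment are counted, so no pair was treated as 1 library.

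The members and lists were chosen with earlier results of these data known. Named from each list were up to 4 called genes whose higher group averaged 5 CPM or more, by size of change, and others are said to be named after their values were seen. Positions are those of the deposited table, and all 10 members had the same span in GENCODE 29. Sequences are from RefSeq (GRCh38.p14). Protein sequences were not used here.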

Additional observations from a re-analysis of the deposited data

How the results depend on the processing

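Of the 9 tested members, 4 (QPRT, KYNU, NNMT and NMNAT1) kept direction and side of the threshold under all 11 alternatives. Of 19 named genes of the other lists, 12 did. NMNAT1 kept its side by never being called, and its log2 fold change was not stable, from 0.0043 to 0.474 over the alternatives. Scaling by library totals alone gave 0 members called higher instead of 2, 7 other NAD genes called higher instead of 11, and turned the uncalled fold changes of NAPRT (-0.0226), NADK2 (-0.0313) and NAT10 (-0.0241), while the median row moved to -0.12. NAA40 was called with it (-0.26, adjusted p = 0.0491, by edgeR). DESeq2 called 2771 rows lower instead of 4169 and 7 other NAD genes higher. Leaving out each library in turn gave 0 to 2 members called higher and 3 to 4 lower, 8 to 10 other NAD genes higher and 10 to 16 lower, and 2895 to 3818 rows higher and 3233 to 3977 lower over the table. The members behind these counts also changed. Without siNAT10 replicate 1, NADSYN1 was not called (-0.24), and NMNAT3, which the main fit did not test, was counted as lower. The cause of these changes was not tested.

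The labels do not say whether same-numbered libraries are paired. Deviations of same-numbered libraries from their group means correlated at -0.08 over 11574 rows with a mean of at least 5 CPM. That value shows no shared effect of the replicate number, but cannot tell whether same-numbered libraries were handled together. With the replicate number as a block, 3997 rows were higher and 4257 lower, and 2 members were higher and 4 lower. SLC7A5 was called with the block (0.76). Where 1 library is left out, the lone library of its group is assumed to vary like the other group, so calls gained that way, as for SLC7A5, say nothing of stability. The lowest genes, such as NMNAT3 and NMNAT2 with 0 to 44 counts in a library, are limited by depth.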
